A study of Mus musculus with 2 samples.

Results

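Single-exon intergenic loci are stretches of the genome outside annotated genes from which long RNA reads were obtained without any splice junction. They were taken as all transcript models of the intergenic class with 1 exon, and models of the 2 libraries were joined into a locus where they overlapped by at least 1 base on the same strand. The rule found 1152 models in replicate 1 and 1334 models in replicate 2, of 56747 and 68983 mouse models, and these formed 2165 loci. The libraries were made from heart tissue of male B6CASTF1/J mice, a first-generation cross of a C57BL strain with a CAST strain, aged 2 months, with 2 µg of starting RNA each. They form 1 group without a treatment or a control group. The biosample labels number the animals separately, but another label field gives both libraries the same animal number, so the differences reported here measure only the spread between these libraries, which may be technical.

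RNA from outside annotated genes can come from transcripts that run past an annotated gene end, from unannotated noncoding RNAs, from transcription that leaves a promoter in the opposite direction, or from repeated elements and pseudogenes. Reverse transcription is primed at poly(A), so a run of A inside a transcript can serve as a priming site in place of a true poly(A) tail. AATAAA and its variant ATTAAA are the usual poly(A) signals and lie a short way before the cleavage site of most mouse messenger RNAs. B2 elements are short interspersed repeats of the mouse genome that descend from a transfer RNA and carry a promoter for RNA polymerase III.

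Genome sequence around the loci was available only inside the RefSeq promoter windows, which run from 250 bases before to 50 bases after each RefSeq gene start (build GRCm38.p6). These windows covered at least 1 base of 121 of the 2165 loci and the whole of 11 loci. The sequences shown were chosen because the windows hold them, after the loci's reads were known, and they lie outside the rule by which other loci are named. The first is a complete locus of 169 bases on the minus strand, chr7:29972755-29972923, with 1 read in replicate 1 and 0 in replicate 2. It is shown because it holds the letters marked in capitals, for which the known first bases of loci were searched. Its length lies within the main length peak of the models, 167 to 183 bases, described below. Capitals mark the letters ATGGCTCAG, which stand near the start of B2 elements.
chr7:29972755-29972923: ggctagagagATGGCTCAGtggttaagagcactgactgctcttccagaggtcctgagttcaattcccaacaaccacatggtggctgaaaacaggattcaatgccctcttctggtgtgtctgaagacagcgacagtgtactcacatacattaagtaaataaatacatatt

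This locus lies inside Gm31735, a RefSeq gene on the same strand. The same 9 letters were searched in the first 60 bases of the 92 loci whose first 60 bases are known, on the strand of the locus, and were found in this locus alone. In pieces of 60 bases cut from all 32851 promoter windows they stood on either strand in 289 of 164255 pieces, or 0.176%. Only 4 of the 92 loci were 100 to 200 bases long, so the share of B2 letters among short loci was not measurable here.

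The 3′ ends of 23 loci lay in the promoter windows together with the 20 genomic bases that follow. Windows of RefSeq gene starts are not a sample of all loci, so these 23 ends are described without reading a share for the 2165 loci from them. AATAAA or ATTAAA stood in the last 40 bases of 6 of the 23 loci (26.1%, exact Clopper-Pearson 95% interval 10.2 to 48.4), and in 2.54% of 229957 pieces of 40 bases cut from all promoter windows, read on the strand of the gene. An A-rich stretch, with at least 12 A among the 20 bases after the end, followed 2 of the 23 loci (8.70%, 1.07 to 28.0), and 0.886% of 492765 pieces of 20 bases from the windows were as rich in A. None of the 23 ends had both features, and 15 had neither.

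For 5 of these loci the last 40 bases of the locus and the 20 bases after its end are printed on the strand of the locus, because they show both kinds of 3′ end. In the first 3 lines capitals mark AATAAA, and in the last 2 lines capitals mark the 20 bases after the end.
chr2:104818640-104818699, plus strand: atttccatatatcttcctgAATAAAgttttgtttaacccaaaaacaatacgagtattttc
chr4:147848594-147848653, plus strand: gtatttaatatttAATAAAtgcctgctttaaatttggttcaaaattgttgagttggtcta
chr4:132329662-132329721, plus strand: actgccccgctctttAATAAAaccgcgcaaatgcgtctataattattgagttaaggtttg
chr5:134314740-134314799, minus strand: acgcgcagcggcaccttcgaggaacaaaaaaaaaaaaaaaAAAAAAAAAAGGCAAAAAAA
chr6:125196681-125196740, plus strand: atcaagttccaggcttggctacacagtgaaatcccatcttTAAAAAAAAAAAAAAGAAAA

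The first 3 of these loci shared their first base with the start of a gene on the opposite strand, so locus and gene point away from each other. The locus chr2:104816760-104818679 met the start of Qser1, lay inside the RefSeq noncoding gene 2310047K21Rik and had 5 reads in replicate 1 and 4 in replicate 2. The locus chr4:147848366-147848633 began at the start of the zinc finger gene Zfp933 and had 2 reads in each library. The locus chr4:132329538-132329701 began at the start of Trnau1ap, a factor for selenocysteine incorporation, and had 0 and 2 reads. Each of the 2 loci with an A-rich stretch rested on 1 read. The locus chr5:134314760-134314993, in the RefSeq gene of the transcription factor Gtf2i, had 17 A among the 20 bases after its end and its only read in replicate 2. The locus chr6:125196269-125196720, which begins at the last base of Mrpl51, a protein of the mitochondrial ribosome, had 18 A and its only read in replicate 1.

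Replicate 1 held 454069 reads and replicate 2 held 661958 reads, of which 447650 and 654130 were mouse reads. All 8 cardiomyocyte markers of a list that includes Myh6 and Tnnt2 were read in both libraries, with summed levels of 54675 and 47284 CPM. CPM are reads scaled to a total of 1000000 reads of annotated nuclear genes, of which the libraries held 430251 and 629896. Of 4 lung and thymus markers, Sftpc, Scgb1a1 and Cd3e had no read in either library, and Lck was read in replicate 1 only, at 4.65 CPM. The 5 erythroid markers summed to 13799 CPM in replicate 1 and 3663 CPM in replicate 2, and their part in the differences between the libraries was not tested.

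The loci took a small share of the heart's reads, and that share hardly differed between the libraries. Single-exon intergenic models received 1824 reads in replicate 1, 0.407% of mouse reads (exact Clopper-Pearson 95% interval 0.389 to 0.427), and 2676 reads in replicate 2, or 0.409% (0.394 to 0.425). These intervals, and the upper limits given for 0 reads, describe counting error alone, since no molecular tags mark copies of a molecule. The mean was 0.408% ± 0.00115 (SD, n = 2). Without the most-read locus, described with the loci that differed, the share was 0.407% in replicate 1 and 0.377% in replicate 2. Spliced intergenic models took 0.0806% and 0.0793% of mouse reads, and single-exon models antisense to annotated genes took 2.62% and 2.37%.

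Most models were seen once. A single read supported 933 of the 1152 models in replicate 1 (81.0%) and 1029 of the 1334 in replicate 2 (77.1%). Among all mouse models, 62.4% and 61.5% rested on 1 read. Replicate 2 had more models, and its expected number at the read total of replicate 1 was 992, below the 1152 models of replicate 1. The 10 most-read loci held 260 of the 1824 reads in replicate 1 (14.3%) and 575 of the 2676 reads in replicate 2 (21.5%). By strand, 1071 loci lay on the plus and 1094 on the minus strand.

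The lengths of the models fell into a narrow peak and a broad tail of long models, and both were present in each library. The most frequent length was 177 bases, with 36 models in replicate 1 and 38 in replicate 2, where 178 bases was as frequent. A peak was taken as at least 4 consecutive lengths with 8 or more models each over both libraries, a rule chosen after the lengths were seen. The main peak ran from 167 to 183 bases and held 223 of 1152 models (19.4%) in replicate 1 and 280 of 1334 (20.99%) in replicate 2. The same lengths held 159 and 215 single-exon antisense models, 3.02% and 3.55% of that class. Of 100 to 200 bases there were 599 and 655 single-exon antisense models, and 466 and 495 single-exon intergenic models. The lengths of the main peak held 0.448% and 0.595% of known single-exon transcripts and 1.04% and 1.11% of all mouse models. Peaks were searched in single-exon intergenic models alone. Smaller peaks lay at 156 to 164 bases, with 59 and 49 models, and at 108 to 111 bases, with 18 and 33 models. The median length was 240 bases in replicate 1 and 299 bases in replicate 2, against 1154 and 1072 bases for single-exon antisense models.

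**Figure D1:**
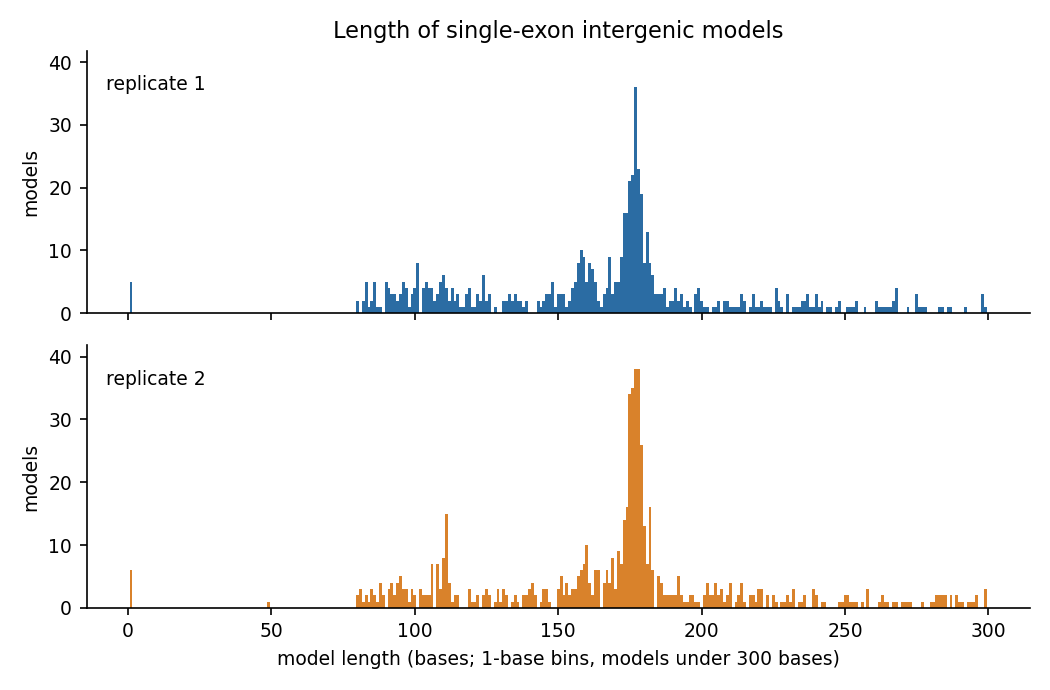
Number of single-exon intergenic models (vertical axis) at each length in bases (horizontal axis, models under 300 bases) in replicate 1 (upper panel) and replicate 2 (lower panel). Both libraries have their highest bar at 177 bases (36 and 38 models), and the few models of 1 base stand apart at the left.

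Very short models were a class of their own. Replicate 1 held 5 models and replicate 2 held 6 models of exactly 1 base, of which 4 overlapped a longer model and the other 7 were loci of their own. From 2 to 79 bases there was no model in replicate 1 and 1 model, of 49 bases, in replicate 2. All other models were at least 80 bases long, and the longest had 8020 bases in replicate 1 and 8033 bases in replicate 2. By length, 98 loci were shorter than 100 bases, 825 (38.1%) were 100 to 200 bases, 631 (29.1%) were 201 to 1000 bases and 611 (28.2%) were longer than 1000 bases. The loci of 100 to 200 bases held 37.3% of the reads of all loci in replicate 1 and 41.3% in replicate 2, and those over 1000 bases held 33.1% and 31.7%.

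Few loci were found in both libraries, but most of those with several reads were. Of the 2165 loci, 304 (14.04%, exact Clopper-Pearson 95% interval 12.6 to 15.6) had reads in both libraries, and 1637 loci (75.6%) had 1 read in all, so that they could not. With 2 summed reads, 105 of 262 loci were in both libraries, and with 3 or 4 reads 104 of 151 were. The count was 56 of 69 with 5 to 9 reads, 24 of 29 with 10 to 19 reads and 15 of 17 with 20 or more. Among loci with at least 2 reads, 304 of 528 single-exon intergenic loci (57.6%) were in both libraries, beside 40 of 51 spliced intergenic loci (78.4%) and 1845 of 2859 single-exon antisense loci (64.5%). By length class this share was 63.4% of loci of 100 to 200 bases, 51.6% of those of 201 to 1000 bases and 59.5% of those over 1000 bases. Of the 9 loci under 100 bases with at least 2 reads, 1 was in both libraries. With at least 10 reads, 39 of 46 single-exon intergenic loci (84.8%) were in both libraries. The counts were 269 of 278 for single-exon antisense loci (96.8%) and 4 of 4 for spliced intergenic loci.

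**Figure D2:**
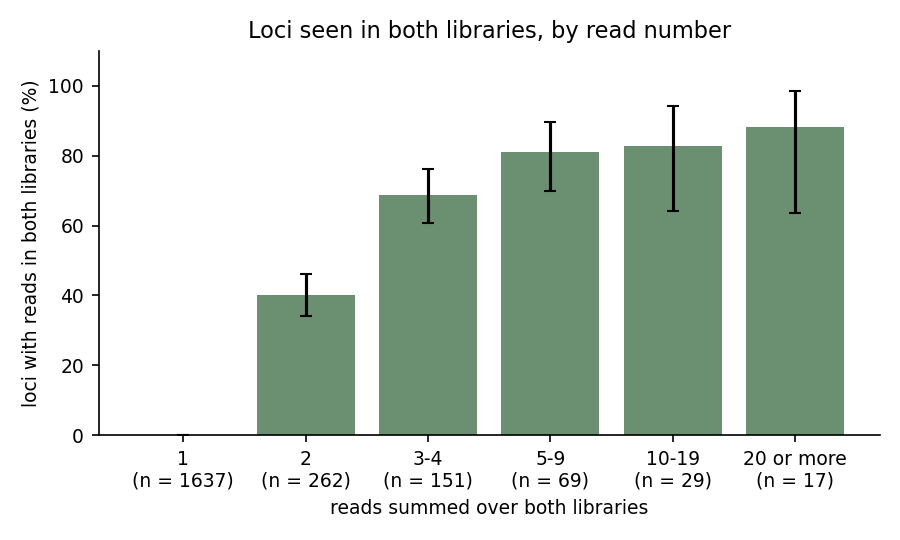
Percent of single-exon intergenic loci with reads in both libraries (bars) by the reads summed over both libraries, with the number of loci under each bar and exact 95% binomial intervals. Loci with 1 read cannot be in both, and the share goes from 40.1% of loci with 2 reads to 88.2% of loci with 20 or more.

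The ends of the models were compared in the 296 loci with 1 model in each library. These include loci that share 1 base with a gene, where an end at the gene edge can match for that reason. Shares without such loci were not calculated. Length here is that of the joined locus, so a pair with distant ends falls into a longer class, and the closeness of ends in short loci is partly set by the class. The 3′ ends lay within 10 bases of each other in 237 pairs (80.1%) and the 5′ ends in 190 pairs (64.2%). In loci of 100 to 200 bases this held for 101 of 109 3′ ends and 104 of 109 5′ ends. In loci over 1000 bases it held for 79 of 108 3′ ends and 34 of 108 5′ ends, and the median distance between the 5′ ends was 469 bases against 1 base between the 3′ ends. The ends of a model need not be those of its reads, since some models were 1 base long and many loci stopped exactly at a gene edge. How the models were cut, and how often a read stopped early, was not tested.

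Position beside annotated genes differed between short and long loci. A locus was called close to a gene within 5000 bases, and same-strand neighbours were taken before opposite-strand ones. Of the 2165 loci, 558 (25.8%) lay downstream of a gene on the same strand and 246 (11.4%) upstream of one. Another 248 (11.5%) lay head to head with a gene on the opposite strand, 271 (12.5%) lay tail to tail with one, 838 (38.7%) lay farther from any gene, and 4 lay on contigs with no annotated gene. Among loci of 100 to 200 bases, 56.2% were farther from any gene and 17.1% were downstream of one. Among loci over 1000 bases, 28.0% were farther and 31.8% were downstream. Of 242 spliced intergenic loci, 33 (13.6%) lay downstream of a gene within the same distance.

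**Figure D3:**
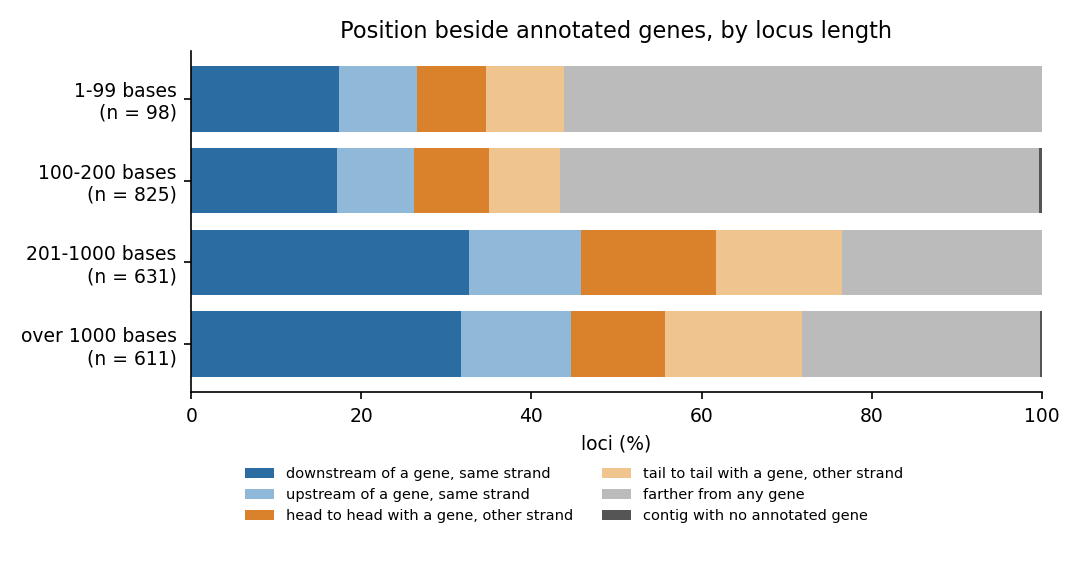
Percent of single-exon intergenic loci (horizontal axis) by position beside annotated genes within 5000 bases (colours), for 4 length classes of loci with their numbers. Of loci of 100 to 200 bases 56.2% lie farther from any gene, against 28.0% of loci over 1000 bases.

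Many loci began or ended exactly at the edge of an annotated gene. Such an edge may reflect how the models were cut and need not be where an RNA began or ended, which was not tested. No locus shared more than 1 base with any gene, but 369 loci (17.0%) shared exactly 1 base, the first or last base of a gene. Of these edges, 144 were with the end of an upstream gene on the same strand and 144 with the start of a gene on the opposite strand. A shared edge was found in 33.6% of loci of 201 to 1000 bases and 21.4% of loci over 1000 bases, against 2.79% of loci of 100 to 200 bases. Of the 144 genes whose end was shared, 82 were protein-coding and 52 were pseudogenes. A model that continues a gene past its annotated end shares its RNA with that gene, and reads on either side of the edge could not be assigned to separate molecules here.

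RefSeq, which draws some genes longer than GENCODE M21, placed part of the loci inside genes. At least 50% of the bases lay in a same-strand RefSeq gene for 271 of 2165 loci (12.5%), of which 141 met a protein-coding gene, 81 a long noncoding RNA gene and 43 a pseudogene. For 142 of the 558 downstream loci (25.4%) it was the RefSeq version of the upstream gene itself. The share was 7.27% for loci of 100 to 200 bases, 17.4% for those of 201 to 1000 bases and 15.1% for those over 1000 bases. A RefSeq miRNA hairpin lay on the same strand in 1 of the 2165 loci.

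The genes just upstream of downstream loci were 535 in number, 353 of them protein-coding, and 373 had reads of their own. The median level of those with reads was 24.7 CPM, against 11.8 CPM for all 14534 genes with reads. Among protein-coding genes the medians were 33.3 and 15.7 CPM. The gap from gene end to locus was 0 in 144 of the 558, 1 to 1000 bases in 89 and over 1000 up to 5000 bases in 325.

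Of 172 genes in lists of heart programs and heart cell types, 9 had a locus downstream on the same strand, beside 373 of the 14534 genes with reads. Of 27 sarcomere and Z-disc genes, all of them read, 2 had a downstream locus. Actn2, the alpha-actinin that anchors actin filaments at the Z-disc, was read at 2935 and 2681 CPM, and a locus of 126 bases (chr13:12266422-12266547, minus strand) lay 2879 bases behind its end with 5 reads in replicate 1 and 8 in replicate 2. A further locus of 299 bases continued directly from the end of Actn2 with 1 and 0 reads. Tnnt2, cardiac troponin T, had a locus of 312 bases directly behind its end with 1 and 2 reads.

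Among 20 calcium handling and excitation genes 2 had a locus. Atp2a2 pumps calcium into the sarcoplasmic reticulum and had one of 2018 bases that lay 3093 bases downstream with 2 and 1 reads, and Ryr2, the calcium release channel, had one of 156 bases with 0 and 1 reads. Among 32 genes of mitochondrial energy and fuel, Ogdh, a subunit of the oxoglutarate dehydrogenase complex, had a locus of 1952 bases (chr11:6357271-6359222, plus strand) with 3 and 2 reads, 93.4% of which lay inside the RefSeq Ogdh gene. Hadhb, the mitochondrial trifunctional protein beta subunit, had a locus with 0 and 1 reads, and Ckm, muscle creatine kinase, had one with 1 and 0 reads. Among 20 cardiac transcription factors Nkx2-5 had 2 loci, of 2001 and 2323 bases, with 1 read each, 1 in each library. Among 13 clock genes Tef had 1 locus with 1 read. The fibroblast, endothelial, pericyte, macrophage and erythroid lists, with 60 genes in all, had none. Among all 14534 genes with reads, 373 had such a locus. A difference between the lists was not tested.

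The downstream loci with the most reads lay behind other genes. Of the 46 loci with at least 10 summed reads, 18 lay downstream of a gene on the same strand. Behind Hipk2, a nuclear kinase, a locus of 2036 bases (chr6:38687514-38689549, minus strand) had 8 and 14 reads, beside 4 and 7 reads for Hipk2 itself. Behind Ppara, a nuclear receptor that drives fatty acid oxidation, a locus of 3442 bases (chr15:85803531-85806972, plus strand) had 3 and 15 reads, beside 3 and 2 reads for Ppara. Both loci lay inside the RefSeq version of their gene, wholly for Hipk2 and over 96.5% of the bases for Ppara. The Ppara locus was 3.42-fold higher in replicate 2 (95% interval 0.966 to 18.4), a difference that did not pass the exact binomial test (adjusted p = 0.693, Benjamini-Hochberg).

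Further downstream loci with at least 10 reads, chosen after their values were seen, lay behind Kcnj12, an inward rectifier potassium channel, with 6 and 8 reads, and behind Hif1an, which hydroxylates HIF1A, with 7 and 7 reads. Chosen in the same way, the locus behind Adprhl1, a heart-enriched protein, began at the end of the gene and had 5 and 8 reads beside 323 and 545 for the gene. The locus behind Klhl10, a ubiquitin ligase adaptor, had 5 and 11 reads beside 1 and 0 for the gene. Behind Ppargc1b, a coactivator of mitochondrial genes, a locus of 4714 bases had 5 reads in each library. The locus behind Marveld2, a protein of tight junctions, was 5056 bases long, with 3 and 7 reads, and Marveld2 itself had no read in replicate 1. Of the 18 downstream loci, those of Hipk2, Marveld2, Klhl10 and mt-Tt held more reads than the annotated gene in both libraries. In replicate 2 only this held for the loci of Ppara, Zbtb16, Gm15387, Got2-ps1 and Gm29216, and in replicate 1 only for those of Gm6969 and Nt5c1a.

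Among the 20 loci with the highest mean level, 8 were 100 to 200 bases and 8 were over 1000 bases long, and 18 had reads in both libraries. The short ones lay away from genes on the same strand, apart from the locus between Gm29216 and Gm28661 described below. The highest of them was chr7:19933823-19933992 on the plus strand, 170 bases, with 40 reads in replicate 1 and 100 in replicate 2, or 93.0 and 159 CPM. It was 1.71-fold higher in replicate 2 (95% interval 1.17 to 2.53), which did not pass the exact binomial test (adjusted p = 0.241, Benjamini-Hochberg). The locus chr15:103619061-103619240, 180 bases on the plus strand and 89009 bases behind Pde1b, had 46 and 75 reads, or 107 and 119 CPM. The model of this locus spanned 119 bases in replicate 1 and 180 in replicate 2, with the same 3′ end.

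Other short loci had nearly the same ends in both libraries. The locus chr7:126643199-126643376 of 178 bases had 13 and 17 reads, and its models ended at the same 3′ base in both libraries. The locus chr12:73026069-73026225 of 157 bases had 11 and 13 reads and identical first and last bases. The locus chr11:69075739-69075919 of 181 bases had 10 and 8 reads, or 23.2 and 12.7 CPM, 1.83-fold higher in replicate 1 with a 95% interval of 0.650 to 5.34. The locus chr1:43121412-43121593 of 182 bases, which lies 1481 bases from the end of Fhl2, a LIM protein of heart muscle, had 7 and 12 reads. A locus of 110 bases on an unplaced contig with no annotated gene had 11 and 12 reads and identical ends. Of the 20 loci, 6 had a length from 156 to 183 bases.

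Among the 20 loci with the highest mean level, 3 were over 1000 bases long and lay farther from any gene. The locus chr4:133096301-133101548, 5248 bases on the plus strand, had 15 and 21 reads, or 34.1 ± 1.08 CPM (SD, n = 2), with identical ends in both libraries, and its nearest same-strand gene ended 7155 bases before it. The locus chr14:32115643-32118251 of 2609 bases had 10 and 12 reads with 3′ ends 2 bases apart. The locus chr6:64896979-64899441 had 7 and 12 reads, but its model spanned 2463 bases in replicate 2 and 86 bases near the 3′ end in replicate 1.

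Other loci ran toward a gene on the opposite strand. The locus chr7:28187294-28189941 ended at the last base of Dyrk1b, a kinase, and had 29 and 33 reads, or 59.9 ± 10.6 CPM. The locus chr19:41589573-41591527 lay 784 bases from the miRNA gene Mir8091 and had 18 and 24 reads. The locus chr2:180719323-180720964 lay 590 bases from Gid8, a subunit of a ubiquitin ligase, and had 12 and 18 reads, and chr6:85844459-85845061, which ended at the last base of Ptges3-ps, had 13 and 15 reads. The locus chr15:82362916-82367881, one of the 5 longest with at least 10 reads, lay 2646 bases from the end of Cyp2d22, a cytochrome P450, and had 5 and 9 reads.

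The mitochondrial genome held 1 locus, on the plus strand at chrM:15422-16297. It had 7 reads in replicate 1 and 13 in replicate 2, began 67 bases behind the threonine tRNA mt-Tt and met the proline tRNA mt-Tp of the other strand at the edge. This stretch holds the control region of mitochondrial DNA.

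Reads of each locus were then compared between the libraries by an exact binomial test, two-sided, in which the nuclear totals set the expected split of the summed reads. The p-values were adjusted by the Benjamini-Hochberg method over the 8457 annotated genes and unannotated loci that had 10 or more summed reads. Because only 2 libraries enter it, it says nothing of spread between animals. Called loci had an adjusted p below 0.05 and differed by 2-fold or more. Of the 46 loci tested, 4 were called (8.70%), beside 0.438% of all 8457 features. Of these, 2 were higher in replicate 1, a direction called for 0.284% of all features, and 2 were higher in replicate 2, a direction called for 0.154%. A p under 0.05 before adjustment was found for 9 of the 46 loci and for 612 of all 8457 features. The levels of 29 of the 46 loci lay within 1.5-fold of each other.

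**Figure D4:**
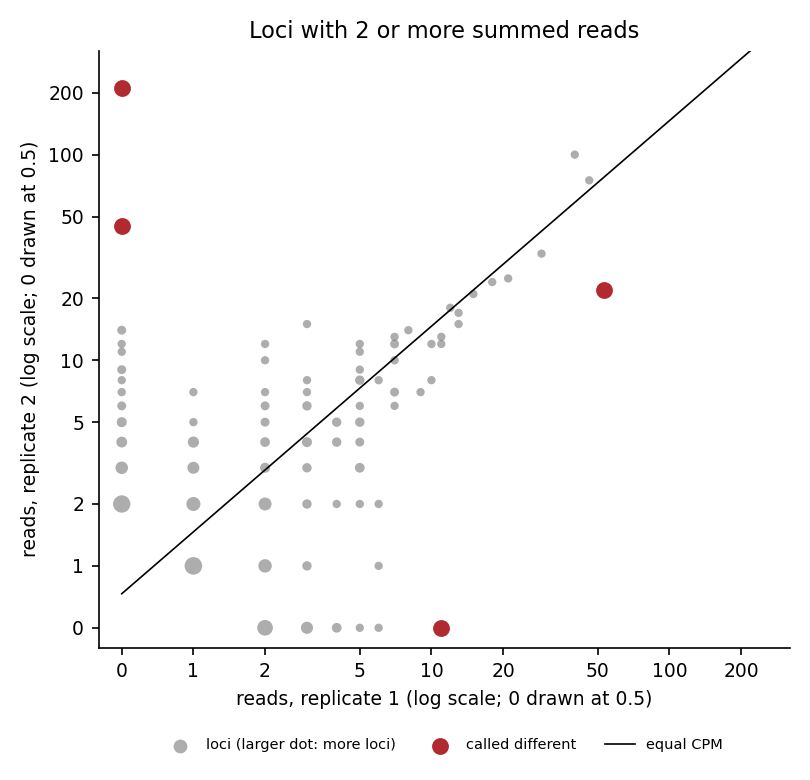
Reads per single-exon intergenic locus in replicate 1 (horizontal) and replicate 2 (vertical) on log axes, with 0 drawn at 0.5, for loci with at least 2 summed reads. The 4 called loci (red) stand off the line of equal CPM, and 3 of them lie on an axis with 0 reads in 1 library.

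The largest difference was at chr1:24615565-24615706 on the minus strand, 142 bases that fill the whole space between Gm29216 and Gm28661. It had 0 reads in replicate 1 and 212 in replicate 2, where 0 reads allow up to 6.97 CPM and 212 reads are 337 CPM. Taken against 3 reads, replicate 2 was 48.3-fold higher, and the exact 95% interval for 212 against 0 reads began at 38.9-fold. The adjusted p of this difference was 1.7e-45 by the exact binomial test with Benjamini-Hochberg adjustment. Both neighbours are pseudogenes copied from mitochondrial DNA. Of 468 words of 25 bases in the GENCODE M21 transcript of Gm29216, 455 (97.2%) occur in mt-Co1, and all 657 words of Gm28661 occur in mt-Co2, the genes of cytochrome c oxidase subunits. Gm29216 had 377 CPM in replicate 1 and 11.1 CPM in replicate 2, the opposite order to that of the locus. Reads of such near-identical copies follow the authors' assignment and are uncertain.

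A called locus with reads in both libraries lay beside Gm6969, a processed pseudogene of which 82.4% of the words occur in Cox7a2l, a factor of respiratory supercomplexes. The locus chr12:24637950-24638669 on the minus strand began at the last base of Gm6969 and had 53 reads in replicate 1 and 22 in replicate 2. It was 3.53-fold higher in replicate 1 (95% interval 2.11 to 6.09, exact binomial test, adjusted p = 5.28e-05, Benjamini-Hochberg). The model of replicate 2 spanned 720 bases and that of replicate 1 only 112 bases inside them. Where models were joined only on overlap of 50% of each, these were separate loci, and the locus of the 720-base model was higher in replicate 2 (log2 ratio -4.94, adjusted p = 0.0024 by the exact binomial test, Benjamini-Hochberg). Gm6969 itself had 60.4 and 96.8 CPM.

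The locus chr5:138363267-138363719 on the minus strand had no read in replicate 1 and 45 in replicate 2. Its level there was 10.2-fold higher when taken against 3 reads, which is not a lower limit. The exact 95% interval for 45 against 0 reads began below that value. The locus had an adjusted p of 3.39e-08 by the same exact binomial test with Benjamini-Hochberg adjustment. It lay 541 bases behind Got2-ps1, a pseudogene of the aspartate aminotransferase Got2, inside the RefSeq version of that pseudogene, and began at the start of the noncoding gene Gm10874 on the other strand. The locus chr4:123216275-123222224 on the plus strand, 5950 bases, had 11 reads in replicate 1 and none in replicate 2. Taken against 3 reads, replicate 1 was 5.37-fold higher, and the exact 95% interval for 11 against 0 reads began at 3.67-fold. The locus had an adjusted p of 0.008 by that exact binomial test with Benjamini-Hochberg adjustment. It began at the end of Nt5c1a, a cytosolic nucleotidase of muscle, and lay wholly inside the RefSeq Nt5c1a gene. Nt5c1a itself had 1 read in replicate 1 and 16 in replicate 2.

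All 4 called loci shared a base with an annotated gene, as did 11 of the 42 that were not called. For each called locus, reads of the other same-strand models that overlap it by at least 1 base were then added in each library. These were models of annotated genes, apart from the locus at Got2-ps1, where the 29 reads added in replicate 1 came from a model classed as antisense. The locus at Gm29216 rose to 221 and 317 reads, 514 and 503 CPM. With added reads, the locus at Gm6969 had 79 and 83, the locus at Got2-ps1 29 and 45, and the locus at Nt5c1a 12 and 15 reads. The levels then differed by 1.02-fold, 1.39-fold, 1.06-fold and 1.17-fold, and no adjusted p was below 0.633 by the exact binomial test with Benjamini-Hochberg adjustment. Of the 46 tested loci, 0 were called after the addition and 36 lay within 1.5-fold. Reads added from other models can bring the levels closer by themselves, so the sums do not show whether a locus itself differed.

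**Figure D5:**
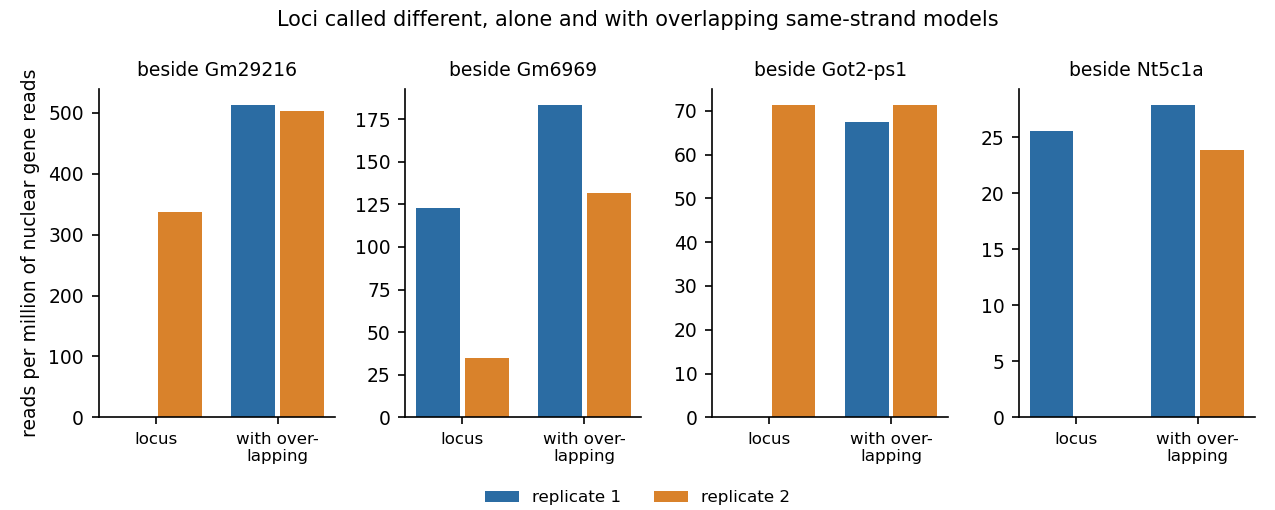
Level in CPM of the 4 called loci in replicate 1 (blue) and replicate 2 (orange), for the locus alone and with the reads of overlapping same-strand models. The bars of the 2 libraries differ for the locus alone and lie within 1.39-fold of each other with the added reads.

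Of the 115 loci with at least 5 summed reads, 20 had reads in 1 library and none in the other. The same share over all features was not calculated. Called loci described above make up 3 of these 20. In the library without reads, 14 of the other 17 had an overlapping model of another class on the same strand, and in 8 this was a model of an annotated gene. Of the 95 loci with at least 5 summed reads found in both libraries, 17 had such a model of another class in replicate 1 and 19 in replicate 2. A base was shared with a gene by 9 of the 17 loci, and by 27 of the 94 loci in both libraries that were not called. The locus behind Zbtb16, a zinc finger repressor, had 0 and 14 reads (chr9:48651781-48653263, minus strand), and models of Zbtb16 itself overlapped it with 11 reads in replicate 1 and 0 in replicate 2. The locus beside Gm10039, 112 bases (chr11:100361605-100361716, minus strand), had 0 and 14 reads, and models of that pseudogene overlapped it with 29 and 22 reads. A locus of chromosome 18, chr18:26003109-26005850, had 0 and 12 reads, and models of other unannotated classes overlapped it with 10 reads in replicate 1 and 2 in replicate 2. None of these 3 differences passed the exact binomial test (adjusted p = 0.123, 0.123 and 0.177, Benjamini-Hochberg).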

How the data were processed

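Long-read RNA libraries of mouse heart, 2 in 1 group, were analysed. The authors deposited whole-number read counts per transcript model, one table for each library, with exon number, length and class, and TALON models with coordinates on mm10 against GENCODE M21, per the file headers and the deposited text files. The sources used here give no aligner, read correction, strand assignment or program version. Counts of near-identical copies, such as pseudogenes, follow the authors' assignment and are uncertain. Depth was 454069 and 661958 reads. CPM are relative to 430251 and 629896 reads of nuclear genes, so a count of 0 allows 6.97 and 4.76 CPM (3 reads).

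From these counts, loci, shares, CPM, exact binomial tests and intervals were calculated with Python 3.11.15, numpy 2.4.6, pandas 2.3.3 and scipy 1.17.1. edgeR 4.0.16 and DESeq2 1.42.0 gave alternative scalings only, because 1 group leaves no replicated contrast. Log2 ratios had 0.5 reads added. The test script was tested on simulated data. Sequences came from the RefSeq promoter table (GRCm38.p6, the same coordinates as mm10 on the chromosomes). No genome sequence was used, so A content, poly(A) signals and repeats were not measured for the other loci. Of 49993 RefSeq genes, the 44415 of known strand were used.

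Loci were named by rule: the 20 highest mean CPM, called loci (at most 10), the 5 longest with at least 10 summed reads and reads in both libraries, the 5 with most reads in 1 library only, and up to 4 per gene list. A result under this rule is not reported here. The members, lists and tests were chosen with earlier results of these data known. Length classes were chosen after the lengths were seen. Alternatives covered read minimum, overlap, scaling, added models, distance and left-out libraries.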

Additional observations from a re-analysis of the deposited data

How the results depend on the processing

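No paired analysis was possible because the series has 1 group. With each replicate left out, the mean number of models (1243) was 1152 to 1334, reads (2250) 1824 to 2676, percent of reads (0.408) 0.407 to 0.409 and median length (269.5) 240 to 299. With models of at least 2 reads there were 262 models and 1269 reads per library, the median length was 456.5 bases, and 24.9% of loci were in both libraries; with at least 5 reads the median was 689 bases. The percent of reads was 0.403 of all reads with spike-ins, 0.424 of nuclear gene reads and 0.392 without the locus at Gm29216. Replicate 2 would have 992 models at the reads of replicate 1. The share of loci in both libraries (14.04%) was 10.7% with reciprocal overlap of 50%, 82.6% and 84.8% at 5 and 10 summed reads, and 16.9% with any unannotated partner. The 4 called loci (37 of all 8457 features) became 9 scaled by spike-in reads (86 of 8457), 8 with reciprocal overlap (41 of 8456), 2 of 137 loci with reads of overlapping models added (35 of 8548) and 6 with TMM or DESeq2 scaling (45 of 8457). Of 31 loci that share no base with a gene, 0 were called by the exact binomial test and 3 had p under 0.05, beside 33 of 8442 features called. The log2 ratio at Gm6969 (1.80) was -4.94 with reciprocal overlap, where by construction the models of 720 and 112 bases form separate loci, and that at Gm29216 (-8.18) was 0.0305 with added reads. Loci close to a gene on the same strand (37.1%) made up 15.3% within 1000 bases, 49.98% within 10000, 32.5% without shared edges and 40.1% of loci in both libraries. The alternatives without shared edges, without the locus at Gm29216 and for loci in both libraries were chosen after seeing the data. Similarity to transcripts elsewhere was not run, since it needs a genome. The poly(A) signal and A-rich shares stayed within their intervals under the settings run, on 23 ends. Depth limits all loci with 1 read: their presence in the other library could not be judged.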
